A study of Mus musculus with 4 samples.

Results

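Cytosolic ribosomal protein genes encode the protein parts of the ribosomes that translate nuclear-encoded messenger RNA. They were picked by gene symbol (Rpl, Rplp or Rps followed by a number, or Rpsa), leaving out the Rps6k kinases and the pseudogenes named with -ps. Each gene was represented by its brightest transcript cluster (a set of probes read as 1 value) with a single gene symbol. This gave 69 genes among 22180 genes with such a cluster. Of these, 35 are core large subunit genes, 23 are core small subunit genes and 7 are paralogs. The other 4 match the symbol pattern but were classed neither as core genes nor as paralogs: Rpl6l, Rpl32l, Rps23rg1 and Rps19bp1. The last encodes a protein that binds RPS19 and is no part of the ribosome.

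A ribosome has a small subunit, which reads the messenger RNA, and a large subunit, which joins the amino acids, and most ribosomal proteins are present in equal number. In most tissues these genes are transcribed at high rates and their messages share a pyrimidine tract at the 5′ end, the TOP motif, through which mTOR signalling controls their translation. In skeletal muscle, insulin and growth factors raise ribosome production, and adult muscle uses RPL3L in place of RPL3 in many of its ribosomes.

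Gastrocnemius RNA of 4 groups of mice was hybridised to Affymetrix arrays, 1 per group. They comprised wild-type (WT) mice that received the sodium citrate vehicle, WT mice that received streptozotocin (STZ, a toxin of pancreatic beta cells), and mice lacking the transcription factor KLF15 specifically in skeletal muscle (KO) that received either vehicle or STZ. The drug was injected intraperitoneally at 50 mg/kg on consecutive days, and muscle was taken at 3 weeks, per the labels' protocols. The sources used here do not give the promoter that drove the deletion, the age of the mice or whether an array held RNA of 1 mouse or several. With 1 array per group no test was possible and the spread between animals is unknown, so higher and lower below describe single arrays.

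Median intensity lay between 5.73 and 5.96 on the 4 arrays. Klf15 itself was read at 50.5 (vehicle) and 72.1 (STZ) on the WT arrays and at 19.8 and 16.04 on the KO arrays. All 9 skeletal muscle markers were well measured, with mean intensities of at least 2195, and their summed intensity differed by at most 1.04 times between arrays. Of 13258 genes with a mean level above the median of all clusters, an intensity of 5.81, the genes picked by symbol made up 63. These were 31 core large subunit genes, 23 core small subunit genes, 6 paralogs, and Rpl6l, Rps23rg1 and Rps19bp1. For short, all 63 are called ribosomal protein genes below. The genes below that level were Rpl10l, Rpl11, Rpl30, Rpl32l, Rpl37 and Rplp2, with intensities from 3.27 to 5.57 on any array. In bulk muscle, fewer cells of a type and less RNA per cell cannot be told apart.

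The ribosomal protein genes split by level. Of the 63, 35 had a mean level above percentile 90 of all clusters, an intensity of 85.4, and are called brightly read. They comprised 21 large subunit genes, 12 small subunit genes, Rpl3l and Rpl6l. The other 28 were dim, down to Rpl39, Rpl27a and Rpl37a with means near 6. A low reading is no measure of how much of the message was present, because 8 of the 34 members that were not brightly read, among them Rplp2, Rpl30, Rps16 and Rps27, are also listed for a brightly read cluster that carries several symbols. Of 77 core genes listed, 19 had no cluster of their own; 12 of those appear in clusters with several symbols, and the other 7 were not analysed here. Ribosomal protein genes have many processed pseudogenes, and the array's clusters can share probes with them: 10 of the 110 single-symbol clusters held values identical to another cluster of the same gene.

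Start-site sequences of 54 of the 69 genes were matched in RefSeq (build GRCm38.p6). A tract was a run of at least 5 C or T bases opening with C within 10 bases of the annotated start. It was searched on the strand that reads like the message. The tract was present in 31 of the 54 genes (57.4%) and in 24 of the 45 core genes among them (53.3%). Of 27025 genes with a window of the same length, 30.8% had it. It was about as frequent in large (14 of 25) as in small subunit genes (10 of 20). Printed below are 40 bases before the start and 20 bases from it, 5′ to 3′, for the 3 brightly read genes of each subunit whose tract opens closest to the start, and for Rpl3l as the muscle paralog. Capitals mark the tract.
Rpl38, chr11:114668540-114668599, plus strand: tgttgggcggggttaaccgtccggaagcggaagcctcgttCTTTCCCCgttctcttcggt
Rpl28, chr7:4792925-4792984, plus strand: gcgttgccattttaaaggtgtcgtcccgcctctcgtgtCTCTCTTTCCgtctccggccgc
Rpl15, chr14:18270967-18271026, minus strand: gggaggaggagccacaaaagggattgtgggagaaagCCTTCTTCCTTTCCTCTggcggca
Rps6, chr4:86857348-86857407, minus strand: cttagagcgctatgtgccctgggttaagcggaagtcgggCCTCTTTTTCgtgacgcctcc
Rps24, chr14:24490638-24490697, plus strand: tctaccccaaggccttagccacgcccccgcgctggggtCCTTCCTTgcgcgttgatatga
Rps26, chr10:128626487-128626546, minus strand: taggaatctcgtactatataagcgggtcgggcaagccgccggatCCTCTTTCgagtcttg
Rpl3l, chr17:24727786-24727845, plus strand: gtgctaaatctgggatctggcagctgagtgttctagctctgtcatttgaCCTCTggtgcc
The longest printed tract is that of Rpl15, with 17 bases, and the Rpl3l tract has 5 bases and opens at base 10. A gene can have several starts, and only the most upstream listed was searched.

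Further motifs were searched on both strands of the whole window, from 250 bases before the start to 50 after. CCGGAAG, the core of a site for ETS-family factors such as GABP, was present in 22 of the 54 genes picked by symbol (40.7%) and in 9.14% of all genes. Of the 45 core genes 20 had it (44.4%). It can be read in the Rpl38 sequence above, before the tract. GGGCGG, the GC box, was present in 51.9% of the 54 genes against 35.9% of all. CACCC, which is part of sites that KLF factors can bind, was present in 55.6% against 56.8% of all, and TATAAA in 11.1% against 14.2%. A match describes the letters in this window and is no measure of binding.

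The array of WT mice given STZ stood apart for these genes. Among the 35 brightly read genes it was the highest of the 4 arrays for 34, where it was the highest for 46.1% of all brightly read genes. KO vehicle was the lowest for 18 of them (21.9% of all brightly read genes) and KO STZ for 12 (49.7%). All 35 genes lay above the intensity of 85.4 on each array. Below WT STZ they had no common order of arrays, and the 2 most frequent orders held 11 genes each. KO vehicle was the lowest for 14 of 21 large (66.7%) and 4 of 12 small subunit genes (33.3%), against 21.9% of all brightly read genes. KO STZ was the lowest for 3 of 21 (14.3%) and 7 of 12 (58.3%), against 49.7%. The small subunit share for KO STZ was thus near that of all brightly read genes. These orders use the intensities as given and were not recounted under another scaling. Under loess, KO vehicle less WT vehicle had a median log2 difference of -0.031 in the large and -0.00080 in the small subunit genes. The summed intensity of the 35 genes was 23748 (vehicle) and 28015 (STZ) in WT, and 22256 and 22593 in KO. Relative to WT vehicle these sums were 1.18, 0.937 and 0.951, and for the 2619 other brightly read genes they were 1.02, 0.965 and 0.919.

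**Figure D1:**
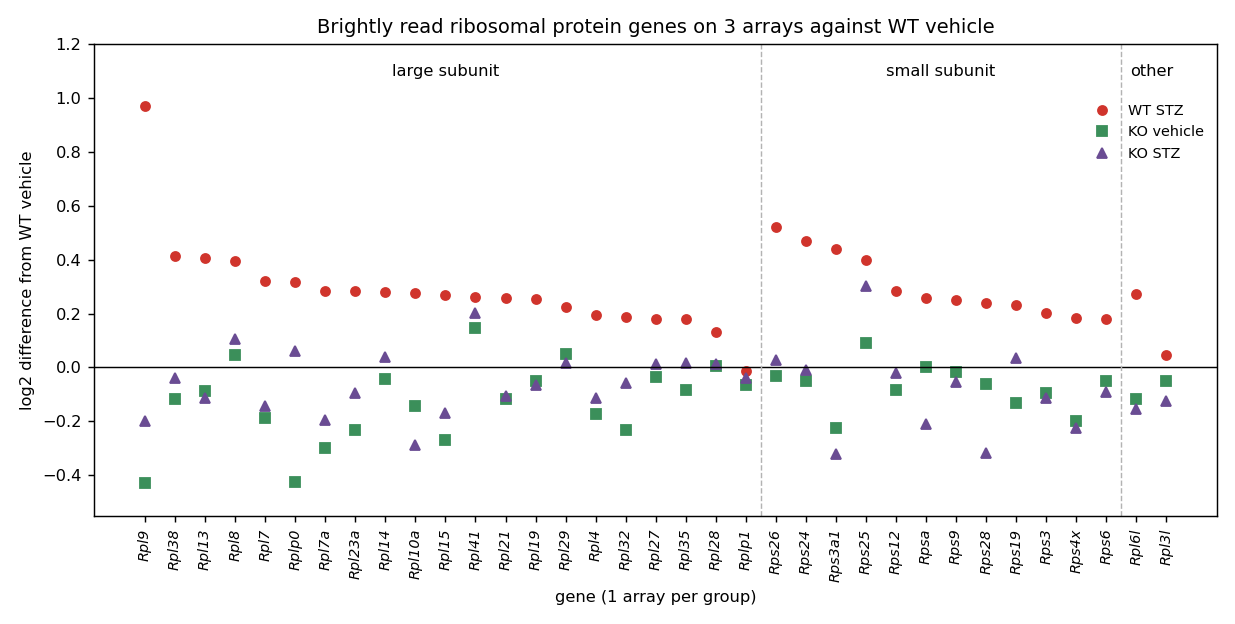
Each column is 1 of the 35 brightly read ribosomal protein genes, ordered within large subunit, small subunit and other. The y axis gives the log2 difference of WT STZ (circles), KO vehicle (squares) and KO STZ (triangles) from WT vehicle, the zero line, with 1 array per group and no error bars; WT STZ is the highest array for every gene but Rplp1.

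The first question was how WT muscle differed after STZ. Most brightly read ribosomal protein genes were slightly higher on the STZ array: 34 of 35 were above 0, with a median log2 difference of 0.26. Of all brightly read genes 57.1% were above 0, and the 2619 that are no members had a median of 0.031. The quartiles of the 35 differences were 0.20 and 0.32, and the values ranged from -0.015 to 0.97. The direction held under every scaling tried: quantile normalization gave a median of 0.20 and loess 0.22, with 33 of 35 above 0 in each, while the other bright genes had medians of -0.034 and -0.014. Over all 63 genes past the level filter, 48 were above 0 (76.2%), against 51.5% of all genes tested. The 28 dim genes had 14 above 0 and a median of 0.053.

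Few single genes passed 1.5-fold (0.58 on the log2 scale) in WT. They were 3 of 63 on the higher side and 2 on the lower side, where 1.27% and 0.445% of all genes tested did so. Rps13, a small subunit protein, was read at 52.3 (vehicle) and 117.2 (STZ) in WT, and at 60.4 and 44.6 in KO. WT STZ is thus the single high array, and the log2 difference in WT was 1.11. Rpl9, a large subunit protein, stood at 159.8, 316.2, 117.7 and 138.8 in the same order. It too was high in WT STZ alone, with a difference of 0.97. Its other cluster was read near 6 on all arrays and differed by -0.11. Rps23, which lies at the decoding centre, was read at 7.64 in WT vehicle and 14.1 in WT STZ, close to the level filter. The 2 on the lower side, Rps16 (from 13.9 to 7.98) and Rps27 (from 25.4 to 14.4), were dim as well.

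Among the brightly read genes, Rps26, a small subunit protein near the messenger RNA exit, followed Rpl9 with 387 in WT vehicle and 556 in WT STZ, a difference of 0.52. On the KO arrays it stood at 378 and 394, so only WT STZ departs from the rest. Rps24 differed by 0.47, Rps3a1 by 0.44, Rpl38 by 0.41, Rpl13 by 0.41, Rps25 by 0.40 and Rpl8 by 0.39. At the other end, Rplp1, an acidic protein of the stalk that recruits translation factors, was read at 1892, 1873, 1811 and 1841 in the same order. It is among the brightest of the set and its 4 arrays lay close together. Rplp0, the base of the same stalk, stood at 178.0, 222.7, 131.6 and 185.8, so KO vehicle was its low array. The remaining stalk protein, Rplp2, was below the level filter.

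**Figure D2:**
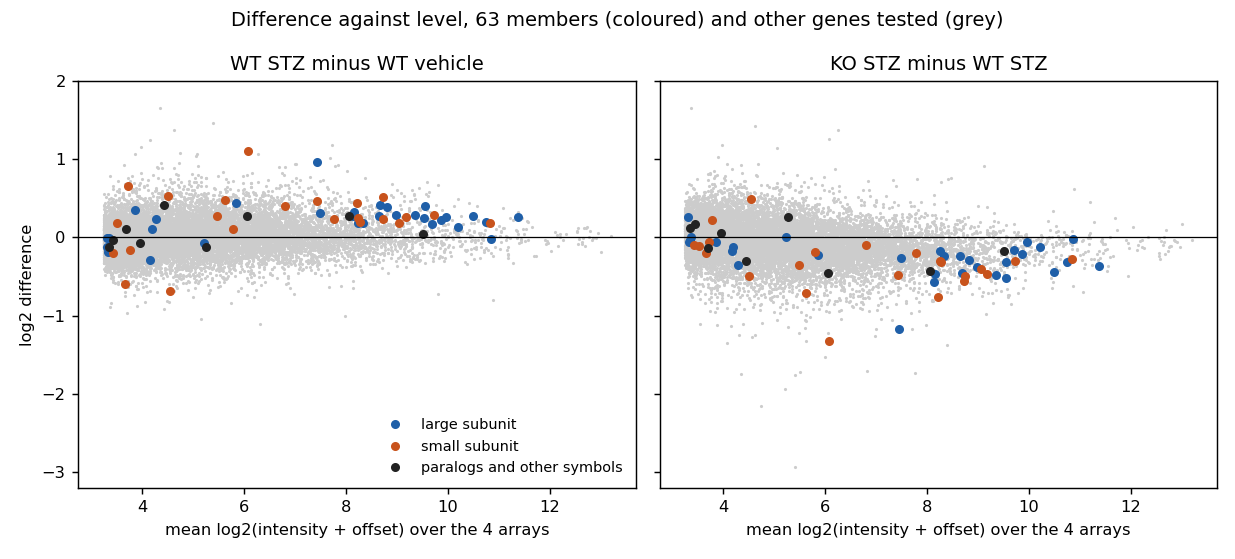
The x axis is the mean log2(intensity + offset) over the 4 arrays and the y axis the log2 difference, for WT STZ minus WT vehicle (left) and KO STZ minus WT STZ (right). Ribosomal protein genes are coloured by subunit and other genes tested are grey; at high level the coloured points lie above 0 on the left (34 of 35) and below 0 on the right (35 of 35), while dim ones scatter to both sides.

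Clusters that the gene rule leaves out were examined too. Apart from identical copies, 34 further clusters carried the symbol of a member alone, and 23 of them were above 0 in WT STZ against WT vehicle, with a median of 0.15. In that comparison 51.5% of all genes tested and 57.1% of all brightly read genes were above 0. The 10 brightly read clusters were all above 0. They belong to genes already counted as brightly read, and Rpl41 and Rps12 each hold more than 1 of these clusters. One of these, the second Rps9 cluster (83.4 in WT vehicle and 134.2 in WT STZ), was above an intensity of 85.4 on the WT STZ array alone, and the other 9 had a median of 0.44. The 4 brightly read clusters of Rpl41, the shortest ribosomal protein, differed by 0.26, 0.44, 0.49 and 0.56. Clusters of 1 gene can therefore differ in size more than many genes do. Of 57 clusters with several symbols that include a ribosomal protein, 45 were above 0, with a median of 0.22. The 24 brightly read ones were all above 0, with a median of 0.28. These clusters may share probes with those above, and so are no independent measurement. They were called bright by the mean of the 4 arrays, WT STZ included, and were not checked on each array.

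The same question was asked of KO muscle. The brightly read ribosomal protein genes were close to level, with a median of 0.042 and 22 of 35 above 0, while the other brightly read genes had a median of -0.074 and 31.4% of all brightly read genes were above 0. Over the 63 genes past the level filter 40 were above 0, against 42.8% of all genes tested. Under quantile normalization the median was 0.11 with 30 of 35 above 0, and under loess 0.11 with 30 of 35, against -0.0088 and -0.0084 for the other bright genes. Rplp0 showed the largest difference among them, at 0.49, followed by Rpl9 at 0.23 and Rps25 at 0.21. Rps28 stood lowest, at -0.25, from 413 in KO vehicle to 346 in KO STZ, and Rpsa, which is also known as a laminin receptor, at -0.21. Rpsa was read at 569.5 and 682 on the WT arrays and at 569.6 and 491 on the KO arrays, so WT STZ was high and KO STZ low. Of the 63 genes, 3 were at least 1.5-fold higher and 0 lower, against 0.445% and 0.656% of all genes tested. These 3 were not brightly read: Rps23 (from 4.92 to 13.5), Rpl34 (from 36.4 to 61.3) and Rpl3 (from 22.0 to 37.8).

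Next, KO was compared with WT in vehicle-treated mice. The brightly read ribosomal protein genes were slightly lower in KO, with a median of -0.083 and 29 of 35 below 0, against 60.7% of all brightly read genes and a median of -0.042 for the others. Over the 63 genes 49 were below 0, against 50.8% of all genes tested. The gap to other bright genes was small and depended on the scaling: under quantile normalization the median was -0.030 with 23 of 35 below 0, and under loess it was -0.0060 with 20 of 35 below 0. Rpl9 (-0.43), Rplp0 (-0.43), Rpl7a (-0.30) and Rpl15 (-0.27) were the lowest, all of the large subunit. Rpl7a stood at 675 and 823 on the WT arrays and at 548 and 590 on the KO arrays, so both KO arrays were below both WT arrays. The same held for Rpl15, with 1477 and 1781 in WT against 1227 and 1313 in KO. Rpl41 was the highest, at 0.15. Of the 63 genes, Rpl3 alone was at least 1.5-fold lower (-0.76; 0.777% of all genes tested were), and none was 1.5-fold higher (0.581%).

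KO was then compared with WT after STZ. All 35 brightly read ribosomal protein genes were below 0 in this comparison, with a median of -0.32. Most bright genes were lower there too: 77.5% were below 0 and the others had a median of -0.15. Over the 63 genes 54 were below 0, against 58.1% of all genes tested. Under quantile normalization the ribosomal protein median was -0.12 with 28 of 35 below 0, and under loess -0.14 with 28 of 35, while the other bright genes turned to 0.026 and 0.0066. The comparison shares the WT STZ array with the first one. With WT vehicle in its place, KO STZ stood at a median of -0.064 with 24 of 35 below 0, where the other brightly read genes had a median of -0.12. On that footing the ribosomal protein genes were no lower than other brightly read genes.

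In KO STZ against WT STZ, 4 of the 63 genes were at least 1.5-fold lower and 0 were higher, against 2.81% and 0.845% of all genes tested. They were Rps13 (-1.32), Rpl9 (-1.17), Rps3a1 (-0.76) and Rps18 (-0.71). The call of Rps3a1 was lost by quantile normalization (-0.56) and by averaging its clusters (-0.22), and that of Rps18 with an offset of 16 (-0.57) and with the mean of its clusters (-0.30). Rps3a1, a small subunit protein, was read at 299 and 406 on the WT arrays and at 255 and 238 on the KO arrays, so both KO arrays were below both WT arrays. Rps18, a small subunit head protein, stood at 43.4, 61.8, 44.6 and 36.3, with WT STZ high and KO STZ low. Rpl10a (-0.56), Rps28 (-0.56) and Rpl13 (-0.52) followed among the brightly read genes. Rpl13 was read at 721, 957, 678 and 667, so again only WT STZ was apart.

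Finally, the STZ differences of both genotypes were compared. The difference in KO less the difference in WT had a median of -0.22 over the 35 brightly read genes, with 33 below 0, against 70.3% of all brightly read genes and a median of -0.11 for the others. Over the 63 genes 44 were below 0, against 57.1% of all genes tested. The bright median was -0.077 with 27 of 35 below 0 under quantile normalization and -0.12 with 30 of 35 below 0 under loess. The 2 genes above 0 were Rplp0 (0.17) and Rplp1 (0.038). Of the 63 genes, 4 were at most -0.58 and 2 at least 0.58, where 3.91% and 1.76% of all genes tested were. On the lower side were Rps13 (-1.52), Rps18 (-0.74), Rpl9 (-0.74) and Rpl7l1 (-0.60), and on the higher side Rps27 (0.89) and Rpl3 (0.76).

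The subunits were compared by their differences, since levels of different probes cannot be set against each other. In WT STZ the brightly read genes had medians of 0.27 for the large and 0.25 for the small subunit, so the subunit medians lay close together. In KO STZ against KO vehicle the medians were 0.059 and -0.023, with 17 of 21 large (81.0%) and 5 of 12 small subunit genes (41.7%) above 0. Of all brightly read genes 31.4% were above 0 there, and the brightly read genes that are no members had a median of -0.074, below both subunits. Quantile normalization (0.13 and 0.053) and loess (0.12 and 0.042) kept the large subunit above the small. In KO vehicle against WT vehicle they were -0.12 and -0.057, in KO STZ against WT STZ -0.31 and -0.36, and for the difference between STZ effects -0.20 and -0.26. Every one of these gaps was below 0.1, while genes within a subunit ranged from -0.015 to 0.97 (large) and from 0.18 to 0.52 (small) in WT STZ. Over all core genes past the level filter, large minus small gave 0.0039 in WT STZ and -0.0021 in KO STZ.

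**Figure D3:**
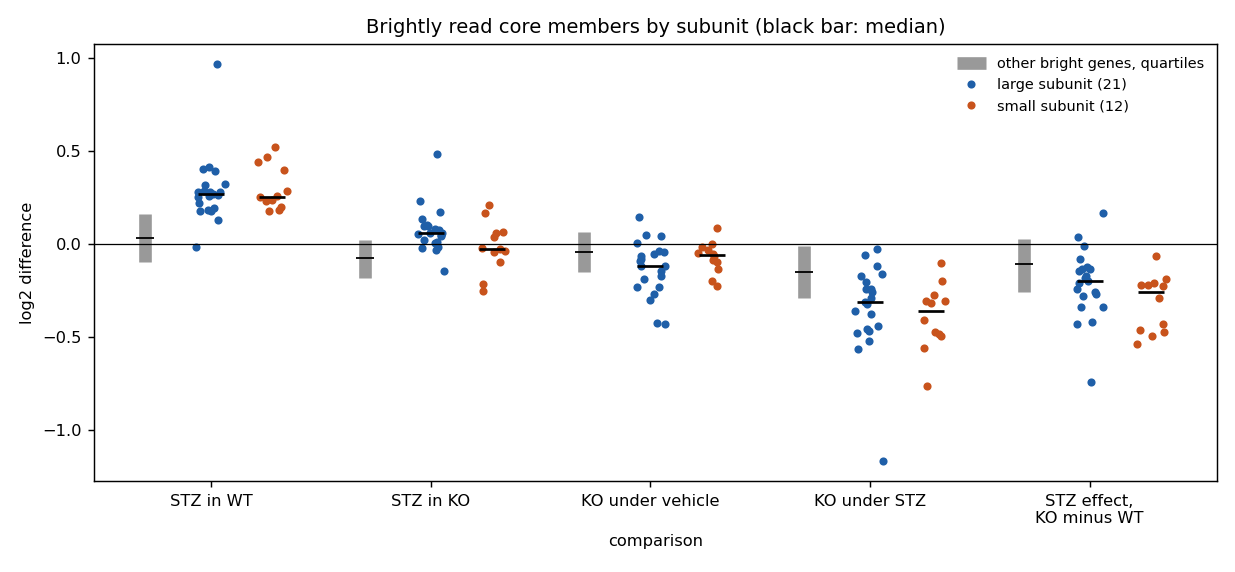
For each of the 5 comparisons, points are the log2 differences of the 21 large and 12 small subunit genes that were brightly read, with a black bar at the median; grey bars span the quartiles of the 2619 other brightly read genes. The subunit medians lie within 0.1 of each other in each comparison, and both lie above the median of the other genes in WT STZ and below it in KO STZ against WT STZ.

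Comparisons without a shared array can be set side by side across genes, which are not independent replicates. Over the 35 brightly read genes, the difference of KO from WT after vehicle correlated with that after STZ at r = 0.57 (rho = 0.46), and with r = 0.41 without Rpl9. Other brightly read genes gave r = 0.45, and all 63 ribosomal protein genes past the level filter gave r = -0.030. The STZ effects in WT and in KO correlated with r = 0.29, and with r = 0.15 without Rpl9, where the other bright genes gave 0.30 and all 63 genes gave 0.0058. All points share their probes and the array's scale.

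Paralogs did not follow one pattern. Rpl3l, the striated muscle paralog of the large subunit protein RPL3, was read at 743 and 767 on the WT arrays and at 718 and 682 on the KO arrays. Next to Rplp1 it had the smallest difference in WT STZ of the brightly read genes, at 0.044. Rpl3 was read at 39.9, 37.8, 22.0 and 37.8 in its brightest cluster, with KO vehicle as the low array. A dimmer Rpl3 cluster gave 16.6, 19.1, 21.1 and 16.8, with KO vehicle highest, as it was in a further cluster read near 5, so no direction is drawn for Rpl3. Rps27l, a p53-responsive paralog of the small subunit protein RPS27, was read at 64.7, 78.9, 54.6 and 56.7, with both KO arrays below both WT arrays. Its parent Rps27 went the other way in WT, at -0.68. Rpl7l1, a nucleolar relative of RPL7, was read at 14.9, 21.3, 19.4 and 16.6, and Rpl7 at 283, 354, 248 and 256. Rpl22l1 (11.3 to 12.3), Rpl39l (8.65 to 9.83) and Rps4l (5.94 to 6.83) varied little over the arrays. Rpl6l, a copy that resembles RPL6, was read at 262, 317, 241 and 235, and Rps19bp1 was higher on both KO arrays (38.1 and 37.0) than on the WT arrays (33.4 and 30.3).

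Many ribosomal protein genes carry small nucleolar RNAs, guides of ribosomal RNA modification, in their introns. By RefSeq spans, 22 of the 69 genes hold 44 small nucleolar RNAs; the strand was not compared. Of these RNAs 13 had a cluster of their own and 11, in 10 host genes, passed the level filter. In WT STZ all 11 RNAs and 7 of the 11 paired hosts were above 0, and 9 of 11 RNAs were above their host, with medians of 0.41 for the RNAs and 0.20 for the hosts. Without the hosts Rpl3 and Rpl37, whose limits are given below, 8 of 8 RNAs and 7 of 8 hosts were above 0. Of those 8 RNAs 6 were above their host, with medians of 0.65 and 0.23. Small nucleolar RNAs in general were higher on that array: 54 of the 60 past the level filter, hosted here or elsewhere, were above 0 (90%). Their median was 0.38, and of all genes tested 51.5% were above 0. Snord58b was read at 30.2 and 89.8 on the WT arrays and at 32.9 and 23.9 on the KO arrays, while its host Rpl17 was near the level filter at 6.09 to 8.08. Snora62, inside Rpsa, was read at 99.7, 164.0, 116.1 and 131.0, so all other arrays were above WT vehicle. In KO vehicle against WT vehicle 10 of 11 RNAs and 2 of 11 hosts were above 0, with medians of 0.18 and -0.17. These 11 pairs count Rpl3, whose clusters disagree, for 2 RNAs and include Rpl37, which is below the level filter. Without both genes 7 of 8 RNAs and 2 of 8 hosts were above 0, and 1 of those hosts was Rpsa at 0.00033. Over all 60 small nucleolar RNAs 45 were above 0 there (75%, against 49.1% of all genes tested), with a median of 0.10. The 10 brightly read hosts had a median of 0.27 in WT STZ and the 25 other brightly read members one of 0.26, so the medians lay close together.

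**Figure D4:**
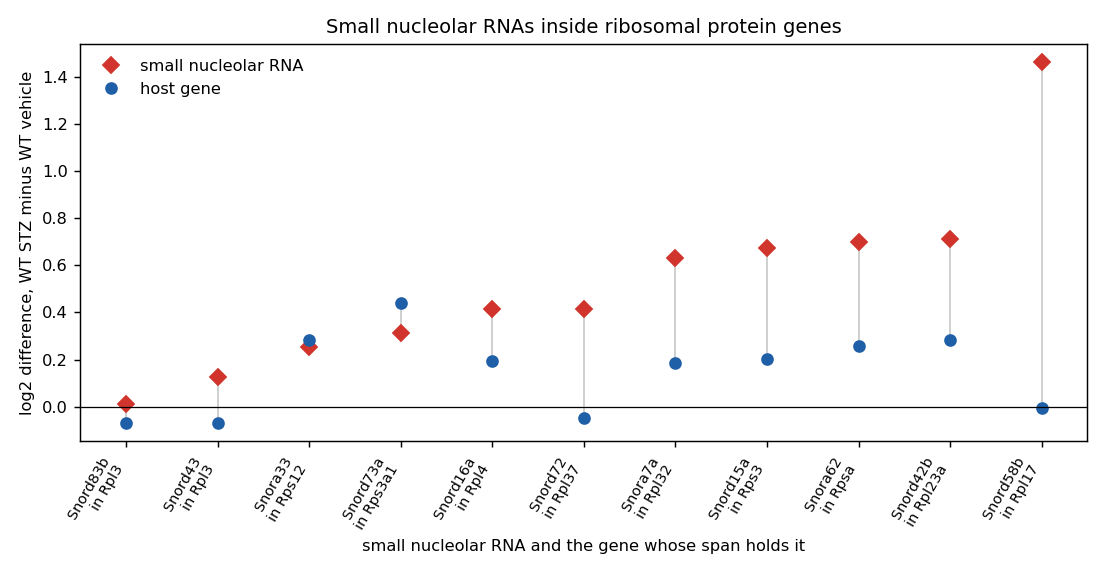
Each column is a small nucleolar RNA (diamond) and the ribosomal protein gene whose span holds it (circle), and the y axis is the log2 difference of WT STZ from WT vehicle. All 11 RNAs lie above 0 and 9 lie above their host (6 of 8 without the hosts Rpl3 and Rpl37). Snord58b is the highest at 1.46.

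Genes next to the ribosomal proteins in function were given for comparison. Fau, which encodes the small subunit protein RPS30 and falls outside the symbol rule, was read at 406, 495, 369 and 378, so WT STZ was high and both KO arrays lay below WT vehicle. Of 17 measured genes of translation factors and other TOP messages, 10 were above 0 in WT STZ (58.8%), with a median of 0.15. In that comparison 51.5% of all genes tested and 57.1% of all brightly read genes were above 0, so this share was near the general one. Npm1, a nucleolar chaperone, differed by 0.45 there and Eif3e, an initiation factor subunit, by 0.45, while Pabpc1, the poly(A)-binding protein, stood at -0.33 and Eif3a at -0.20. In KO STZ against WT STZ the list had a median of -0.30, with 14 of 17 below 0 (82.4%). All brightly read genes had a median of -0.15 there, with 77.5% below 0. Eif3e stood at -0.72, the only one of the list at least 1.5-fold lower (2.81% of all genes tested were). Tpt1, a TOP message, stood at -0.44. Ribosome assembly genes were split between directions: 15 of 30 were above 0 in WT STZ (50.0%, against 51.5% of all genes tested), with a median of -0.013. Ltv1, a small subunit assembly factor, stood at 0.57 and Rrp12 at -0.56. Genes of mTOR control had 7 of 19 above 0 (36.8%) and a median of -0.072, with Sesn1 at 0.46 and Myc at -0.30. The 5 Rps6k kinases past the filter had a median of -0.031, and 69 mitochondrial ribosomal proteins one of 0.12 with 49 above 0 (71.0%).

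Markers of other cell types were summed per array. Adipocyte markers (6 of 7 matched, 5 past the filter) had the widest range, from 882 (KO STZ) to 1363 (WT STZ), the latter being the array where the ribosomal protein genes were highest. Macrophage markers (8 of 8) ran from 227 in WT vehicle to 283 in KO STZ, fibroblast markers (7 of 7) from 3143 in WT vehicle to 3791 in KO STZ and endothelial markers (7 of 7) from 610 in WT STZ to 720 in KO vehicle. Of 6 matched lymphocyte markers 1 passed the level filter. Satellite cell markers (4 of 4) ran from 69.8 to 75.4, tendon markers (5 of 5) from 250 to 336, and the few matched erythroid (1 of 9) and Schwann cell (2 of 4) markers stayed below 23. A sum follows its brightest markers: the brightest adipocyte marker had a mean intensity of 951 and the brightest endothelial marker one of 332. In WT STZ against WT vehicle 4 of the 5 adipocyte markers past the filter were above 0 (80%, against 51.5% of all genes tested), with a median of 0.14. Of the 7 endothelial markers 4 were above 0 (57.1%, near the share of all genes tested). Their median was 0.19, although their sum was lowest in WT STZ. The part of these cells in the result was not tested.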

How the data were processed

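The authors deposited 1 linear intensity per transcript cluster and array, for 41345 clusters on 4 arrays; the sources used here do not give the background correction, summary or normalization. Intensities were turned into log2(intensity + 3.69), the offset being percentile 25 of all values, with no further scaling because the array medians lay within 0.035 on this scale. At high level the arrays lay further apart: percentile 95 of intensity ran from 179 (KO STZ) to 207 (WT STZ). The log2 median of brightly read genes ran from 7.39 (KO STZ) to 7.55 (WT STZ). Log2 differences with this offset understate the change of dim genes. Gene symbols came from the platform's annotation (23521 clusters with 1 symbol, 1814 with several, 16010 not listed). Genes above the median of mean level were kept (13258). The call was 1.5-fold, with no test, as each group had 1 array. The members, lists and tests were chosen with earlier results of these data known, and the group of brightly read genes was set after seeing the values. Any member could be named; those described were drawn from the 5 largest differences each way per comparison, paralogs with parents, stalk proteins, Rpsa, hosts with their RNAs and the 2 largest each way per list, and not all are printed. Alternatives were quantile normalization, loess, division by the array median, offsets of 0.1 and 16, no filter or percentile 75, the mean of all clusters, and core genes only. Python 3.11.15, pandas 2.3.3 and statsmodels 0.14.6 were used, and the summaries were tested on simulated data.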

Additional observations from a re-analysis of the deposited data

Results flagged for a closer look

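In all, 5 genes had STZ effects of opposite sign in the genotypes that differed by at least 1.5-fold, and 1 array per group means that these differences were not tested. They are 7.94% of the 63 genes past the level filter, where 5.23% of all genes tested met the same rule. The KO difference less the WT difference was -1.52 for Rps13 (1.11 in WT and -0.41 in KO), -0.74 for Rps18 (0.47 and -0.27) and -0.60 for Rpl7l1 (0.42 and -0.18). It was 0.89 for Rps27 (-0.68 and 0.20) and 0.76 for Rpl3 (-0.070 and 0.69). None of the 5 was brightly read. The value of Rpl7l1 fell short of 1.5-fold under quantile normalization (-0.56), loess (-0.58) and an offset of 16 (-0.39). With the mean of all its clusters Rps18 stood at -0.26 and Rpl3 at -0.055, and with an offset of 16 Rpl3 stood at 0.56 and Rps27 at 0.58, both short of 1.5-fold. The gene rule left out 24 brightly read clusters with several gene symbols, at least 1 of them a ribosomal protein. On the same arrays they were higher in WT STZ than in WT vehicle by a median of 0.28. They may share probes with the clusters used and were called bright by a mean that includes WT STZ, so they are no independent measurement.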

How the results depend on the processing

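Under all alternatives named for the processing the median of the ribosomal protein genes kept its sign in all 5 comparisons. It moved by 0.1 or more for KO STZ against WT STZ, from -0.24 to -0.10 under quantile normalization and -0.13 under loess, and for the difference between STZ effects, from -0.20 to -0.059 under quantile normalization. With WT vehicle in place of the WT STZ array, an alternative added after seeing the data, the former was -0.057. The difference between subunits had no stable sign in the STZ comparisons. In WT it turned from 0.0039 to -0.034 under quantile normalization, -0.0038 with an offset of 0.1, -0.013 with an offset of 16, -0.010 with no level filter and -0.022 with the mean of all clusters. In KO it turned from -0.0021 to 0.052 under quantile normalization, 0.034 under loess, 0.010 with an offset of 16, 0.081 with the filter at percentile 75 and 0.083 in brightly read genes. The cause was not tested. Of the genes past 1.5-fold, those lower in KO after vehicle numbered 1, but 6 with an offset of 0.1 and 0 with an offset of 16 or the mean of all clusters. For the difference between STZ effects the lower count was 4, but 2 under quantile normalization or with the mean of all clusters, and the higher count 2, but 0 with an offset of 16. With that offset the 3 higher in KO STZ against KO vehicle also became 0, and the 2 lower in WT STZ against WT vehicle became 0. The 2 lower in WT after STZ became 1 under quantile normalization, loess or the filter at percentile 75, the 2 higher for the difference between STZ effects became 1 with the mean of all clusters, and 1 gene in place of 0 was higher in KO STZ against WT STZ with an offset of 0.1. In brightly read genes alone, a group set after seeing the data, 1 gene was higher in WT after STZ, 2 were lower in KO STZ against WT STZ, 1 was lower for the difference between STZ effects and the other counts were 0. With the mean of all clusters, which includes a dim one, Rpl9 stood at 0.43 in WT after STZ. With that mean Rpl3 turned to -0.055 for the difference between STZ effects, since its clusters disagree. No paired analysis was possible because each group has 1 array. No array could be left out of a group. Signal over background limits the dimmest genes, such as Rps23 and Rps16, whose differences rest on few intensity units.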
